A study of Homo sapiens with 28 samples.

Results

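The 38 genes described here encode the coats, GTPases, cargo receptors and tethers that carry proteins between the endoplasmic reticulum (ER) and the Golgi. They were chosen by gene symbol, as the rows of the counts table that carry the symbol of a COPI subunit, a COPII subunit or a partner of either coat, and they are 38 of 61815 human genes in the table. RNA-Seq was carried out on LNCaP cells (genotype given as WT), which derive from a human prostate cancer and respond to androgen, in 28 libraries from 2 experiments. Before treatment all cells were androgen deprived for 72 hours in medium with charcoal-stripped serum. In the 24 h experiment (n = 3 libraries per group) the cells then received vehicle (0.1% DMSO), 1 µM Senexin B, 0.1 nM R1881, or R1881 and Senexin B together for 24 hours. The Senexin B dose is that of the sample labels, and the study's text gives a different one. In the 72 h experiment (n = 4 per group) they received vehicle (0.1% DMSO), 500 nM SNX631, 1 nM R1881, or R1881 and SNX631 together for 72 hours. R1881 is an androgen made by synthesis. The compounds that block the Mediator kinases CDK8 and CDK19, Senexin B and SNX631, are abbreviated CDK8/19i. All groups come from a single cell line in culture, and time, R1881 dose, inhibitor and experiment change together between the experiments and cannot be told apart.

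Secretory and membrane proteins leave the ER in vesicles with a COPII coat, which the GTPase SAR1 starts and which consists of an inner layer of SEC23 and SEC24 and an outer cage of SEC13 and SEC31. SEC24 picks up cargo, either directly or through receptors such as LMAN1, SURF4 and the p24 (TMED) proteins. COPI coats, recruited by ARF GTPases, return receptors and escaped proteins from the Golgi to the ER and act between Golgi cisternae. Tethers and SNAREs such as GOLGA2, USO1, STX5 and BET1 then let the vesicles dock and fuse. Luminal prostate cells are secretory cells, and prostate-specific antigen, encoded by KLK3, is among the proteins that they export under androgen.

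Total counts per library ranged from 9846595 to 33809419, with vehicle 24 h replicate 3 the deepest and all others at or below 15248512. Each of the 38 members matched 1 row and passed the filter on low counts in both experiments, and the lowest count of any member in any library was 169. KLK3 served as the check that R1881 acted. Its level rose with R1881 by 6.15 (SE 0.082) on the log2 scale at 24 h and by 6.57 (SE 0.085) at 72 h. Luminal prostate markers were present in every library, with HOXB13 between 308 and 465 CPM (counts scaled to library size) and KRT8 at or above 456 CPM. Not all of them were high throughout, since TMPRSS2 ranged from 14.2 to 269 CPM and KLK3 from 0.698 to 147 CPM. Of 7 markers of other cells, PTPRC, CD3E, PECAM1, KRT5 and TP63 never exceeded 3 counts, while COL1A1 reached 31.4 CPM and COL3A1 12.9 CPM. The sum of these 7 markers was lower with R1881, at 15.04 to 16.6 CPM against 25.9 to 29.5 CPM with vehicle at 24 h and at 18.1 to 25.2 against 32.6 to 35.4 CPM at 72 h. It was lower again with the inhibitors, at 20.8 to 22.5 CPM with Senexin B and 29.9 to 32.6 CPM with SNX631 alone, and at 9.44 to 10.99 and 13.2 to 15.7 CPM with R1881 added. The part of these markers in the results below was not tested. Levels are given throughout as CPM scaled by the trimmed mean of M values (TMM), and a fold change as the fitted log2 fold change with its standard error (SE). A gene "rose" or "fell" where the false discovery rate (FDR), adjusted over all genes tested, was under 0.01, and it was "called" where the change was also over 1.5-fold.

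Per kilobase of exon, the members spanned a wide range of levels. ARF1 stood highest with 153 CPM per kilobase as the mean of the 8 groups, followed by TMED2 with 93.2 and ARF4 with 76.9. SEC24D stood lowest with 3.25 CPM per kilobase, next to BET1 with 3.37. Among the SEC24 paralogs the order on this scale was SEC24C (40.1), SEC24B (11.97), SEC24A (9.64) and SEC24D. SEC23B, with 50.6 CPM per kilobase, stood above SEC23A with 25.8, and COPG1 with 58.5 above COPG2 with 16.5. These values depend on the annotated exon length, which ran from 2257 bases for STX5 to 19470 bases for TMED3. The members lie on many chromosomes, with a single head-to-head pair. SEC24A (chr5:134648789-134727823, plus strand) and SAR1B (chr5:134601144-134649271, minus strand), which encode the cargo binding and the GTPase component of the same coat, overlap at their 5′ ends in GENCODE 29 (GRCh38).

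Promoter sequence from RefSeq (GRCh38.p14), 250 bases before to 50 bases after each annotated start, was given for 34 of the 38 members, and USO1, TMED9, ARF4 and SEC24D had no entry. The letters TGACGTGG, the core of the unfolded protein response element bound by factors of the ATF6 and XBP1 type, occurred on either strand in the windows of 9 of these 34 genes (26.5%), against 253 of 27305 genes (0.927%) in the whole table. The 9 genes were COPA, COPB1, COPB2, ARF1, GBF1, SEC23A, SEC24A, SEC16A and STX5. They are shown because the match is common to subunits of both coats, with 30 bases around the match, 5′ to 3′ on the strand of the gene. Capitals mark the match, which reads CCACGTCA where the letters lie on the opposite strand.
COPA, chr1:160343227-160343256, minus strand: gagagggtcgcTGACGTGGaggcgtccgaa
COPB1, chr11:14499841-14499870, minus strand: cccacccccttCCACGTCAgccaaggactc
COPB2, chr3:139389825-139389854, minus strand: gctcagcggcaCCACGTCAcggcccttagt
ARF1, chr1:228082681-228082710, plus strand: cccggaggcgcTGACGTGGccgccgtcaga
GBF1, chr10:102245526-102245555, plus strand: gaggctagttaCCACGTCAgtgagctgaca
SEC23A, chr14:39103221-39103250, minus strand: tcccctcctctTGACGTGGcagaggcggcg
SEC24A, chr5:134648595-134648624, plus strand: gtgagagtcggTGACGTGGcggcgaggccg
SEC16A, chr9:136484707-136484736, minus strand: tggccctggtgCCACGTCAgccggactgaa
STX5, chr11:62832049-62832078, minus strand: ttacgtgtaggTGACGTGGccgcttccagt
The nearest base of the match lay 9 bases before the start in ARF1 and STX5, 41 in COPB1 and 172 in SEC24A, while the match lay across the start in SEC23A and just after it in COPA, GBF1 and SEC16A. COPB2 held a second match, which lay across or just after its start. The shorter core ACGTG, which is contained in TGACGTGG, was found in 27 of the 34 genes (79.4%) against 24.9% of all genes. CACGTG was found in 4 of the 34 (11.8%) against 8.77% of all genes. Neither CCAAT followed after 9 bases by CCACG nor AGAACA followed after 3 bases by TGTTCT, a full palindrome of the steroid hormone response type, was found in a member's window, and they occurred in 0.0916% and 0.00366% of all genes. The windows cover only the bases next to the start.

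R1881 raised most of these genes by small amounts. The members were chosen with earlier results of these data known, so the shares of all genes are set beside them as a description. At 24 h, 25 of the 38 members rose and 4 fell, where 26.3% of the 15948 genes tested rose and 22.1% fell. At 72 h, 28 rose and 1 fell, where 27.6% of 16074 genes rose and 24.6% fell. The median of the members' log2 fold changes was 0.22 at 24 h and 0.28 at 72 h, beside -0.016 and -0.014 over all genes tested. Few of the changes were large. At 24 h 1 member was called higher and none lower, against 9.81% and 9.19% of all genes, and at 72 h 6 were called higher and none lower, against 9.70% and 10.1%. The member called at 24 h was LMAN1, a lectin that carries glycoproteins out of the ER. Those called at 72 h were LMAN1, SEC24B, SEC24D, TMED9, SURF4 and GOLGA2. The summed level of the 38 members was 5891 ± 26.9 CPM with vehicle and 6651 ± 39.7 CPM with R1881 at 24 h (n = 3, SD). In the 72 h experiment it was 5874 ± 22.5 and 7157 ± 53.3 CPM (n = 4, SD), with no overlap between the libraries of the groups in either experiment. In bulk RNA these are shares of the total, and fewer cells of a type and less RNA per cell cannot be told apart.

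The direction held in both experiments. Of the 38 members 25 rose in both, beside 22.3% of the 15681 genes tested in both. SEC23A alone fell in both, where 17.1% of those genes did. No member rose in one experiment and fell in the other, and COPB1 and USO1 did neither in any androgen contrast. Across the 38 genes the effects at 24 h and 72 h had a Pearson's r of 0.87 and a Spearman's rho of 0.90, a description over genes that share libraries within each experiment, and the estimate was the higher one at 72 h for 34 of 38. With the CDK8/19i present, R1881 still raised 23 members and lowered 6 at 24 h (26.3% and 21.3% of all genes), with 1 called higher and 1 lower (9.97% and 8.90%). At 72 h it raised 29 and lowered 4 (29.8% and 27.5% of all genes), with 3 called higher and none lower (10.1% and 12.0%). In all 4 androgen contrasts 23 members rose, beside 19.5% of all genes, and SEC23A fell. The share of all genes that fell in all 4 was not counted. Without TMM, on library totals only, the median of all genes moved to -0.093 at 24 h and -0.115 at 72 h. The counts of members that rose and fell became 19 and 8 at 24 h and 26 and 6 at 72 h. With the inhibitor present they became 18 and 7 for Senexin B and 22 and 6 for SNX631. A change of scaling shifts all genes of a comparison by about the same amount. The distance of the members' median to that of all genes (0.23 at 24 h and 0.29 at 72 h) therefore stays the same and is no check. When 1 library at a time was left out, 23 of the 29 members past the limit at 24 h and 29 of 29 at 72 h kept it in every fit.

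**Figure D1:**
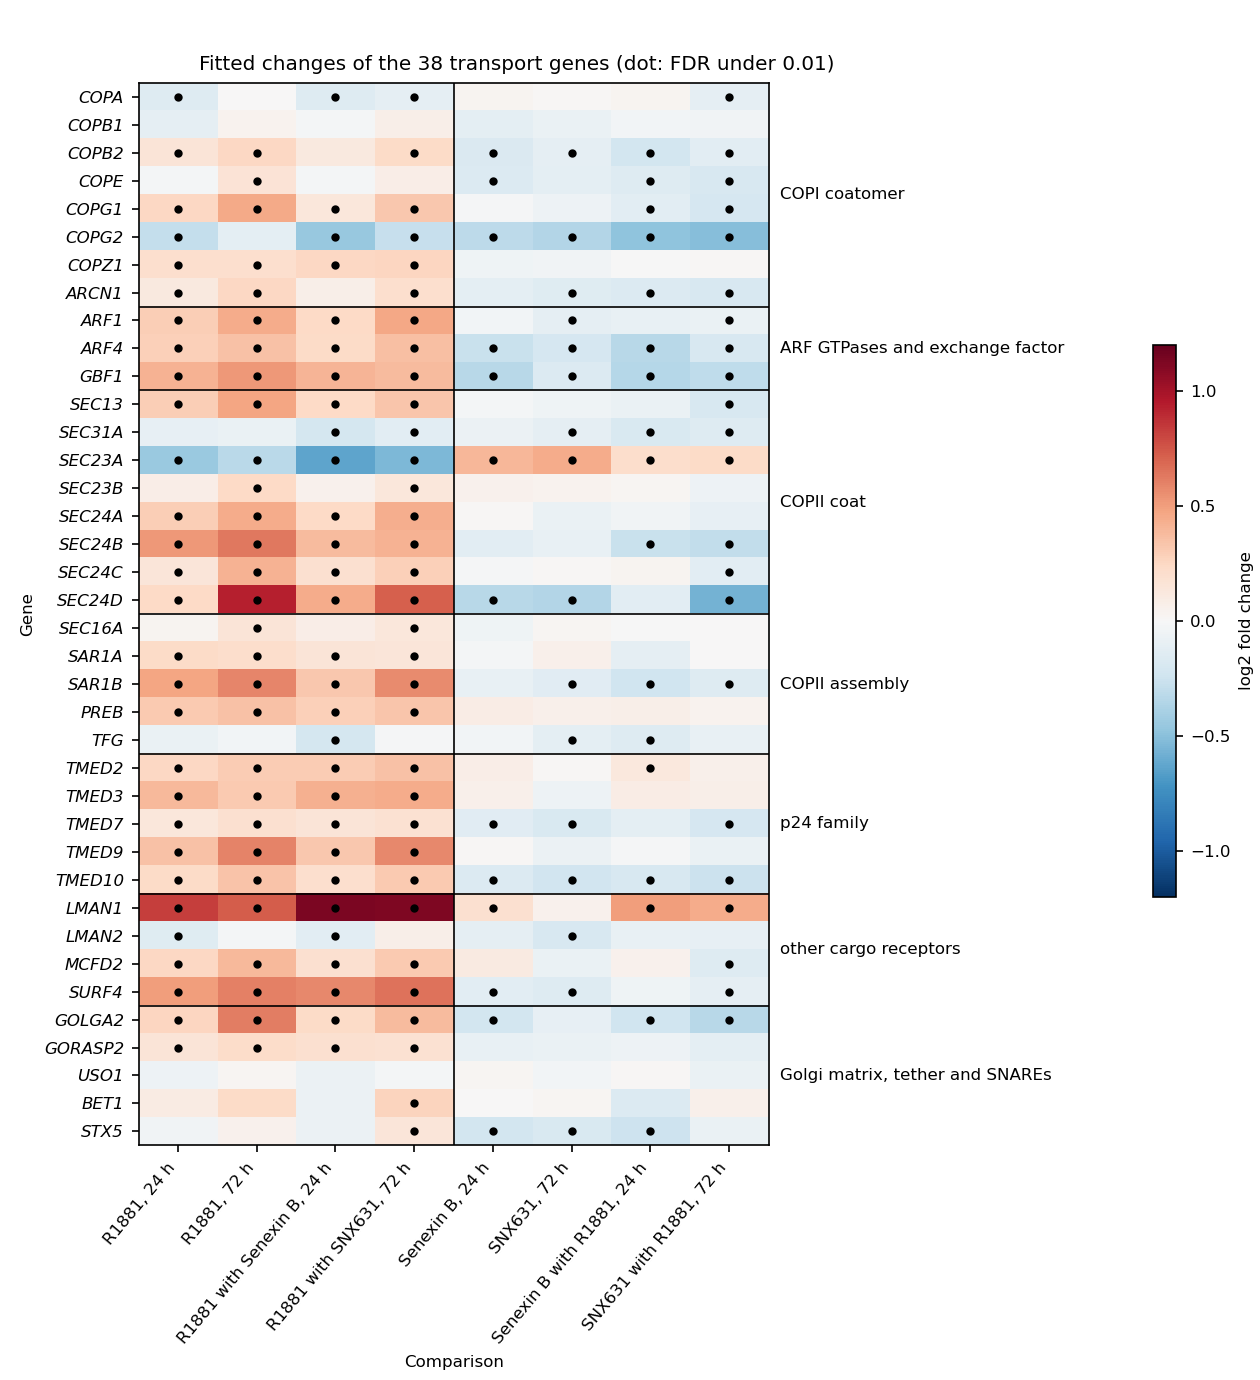
Heat map of the fitted log2 fold change of each of the 38 genes (rows, by role) in the 4 androgen and 4 inhibitor comparisons (columns), with a dot where the FDR was under 0.01. Most androgen cells are red, with SEC23A blue with a dot in all 4, COPG2 and COPA in 3, LMAN2 and SEC31A in 2 and TFG in 1, and most dotted inhibitor cells are blue, with SEC23A and LMAN1 the red exceptions apart from TMED2 in 1 column. On library totals alone the androgen cells lie lower, by the shift given in the text.

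**Figure D2:**
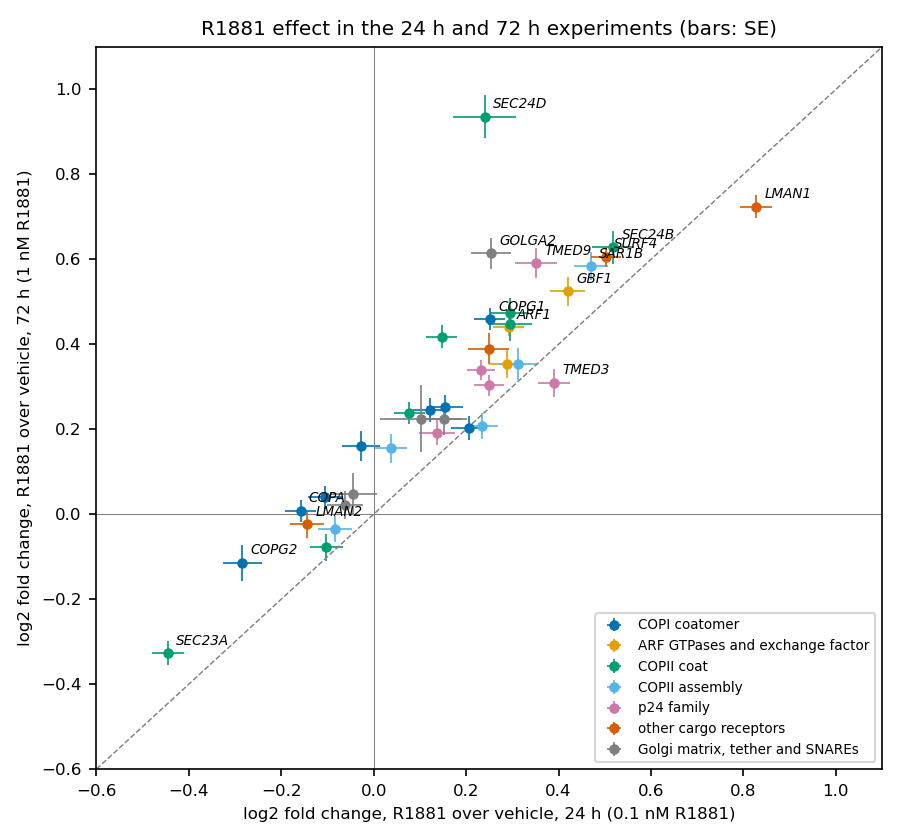
Log2 fold change of R1881 over vehicle at 24 h (x axis) and at 72 h (y axis) for the 38 genes, coloured by role, with bars of 1 SE and the line of equal effects dashed. Most points lie up and to the right of 0 and above the line, with SEC24D farthest above it and SEC23A alone well below 0 on both axes.

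Among the 8 coatomer genes, R1881 raised 4 and lowered 2 at 24 h and raised 5 at 72 h. COPG1, a gamma subunit, rose most. At 24 h its level was 251, 237 and 256 CPM in the vehicle libraries and 301, 286 and 299 CPM with R1881, a log2 fold change of 0.25 (SE 0.034, FDR 1.79e-07). At 72 h it was 218, 223, 221 and 231 CPM with vehicle and 308, 302, 306 and 313 CPM with R1881, a log2 fold change of 0.46 (SE 0.025, FDR 1.62e-18), so that the groups did not overlap in either experiment. Adding the CDK8/19i to R1881 brought COPG1 to 278, 263 and 269 CPM at 24 h and 275, 260.1, 268 and 269 CPM at 72 h, lower than R1881 alone with log2 fold changes of -0.13 and -0.20. The fall at 24 h missed the limit in 4 of 12 fits without 1 library, those without R1881 24 h replicate 1 or 3 or without R1881 and Senexin B replicate 2 or 3, with an FDR of up to 0.0335. Without R1881 it stood at 246, 248 and 242 CPM with Senexin B and 217, 214, 213 and 211 CPM with SNX631.

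COPG2, which encodes the other gamma subunit, fell with R1881 at 24 h. It stood at 85.3, 86.1 and 82.3 CPM with vehicle and 66.6, 71.0 and 69.8 CPM with R1881 at 24 h, a log2 fold change of -0.28 (SE 0.042, FDR 8.22e-07). In the 72 h experiment it was 80.3, 86.6, 82.6 and 80.9 and 73.6, 75.6, 75.6 and 80.1 CPM, and the log2 fold change of -0.11 (SE 0.043) did not pass (FDR 0.0198). Both inhibitors lowered COPG2, with log2 fold changes of -0.32 without and -0.49 with R1881 for Senexin B and of -0.35 and -0.51 for SNX631. The ratio of COPG1 to COPG2 counts was lowest with vehicle, at 2.93 ± 0.178 and 2.71 ± 0.112, and highest with R1881 and inhibitor together, at 5.47 ± 0.228 and 5.03 ± 0.373 (SD, n = 3 at 24 h and 4 at 72 h). R1881 alone gave 4.28 ± 0.244 and 4.03 ± 0.116.

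Of the other coatomer subunits, 3 rose with R1881 in both experiments. COPZ1, the zeta subunit, rose with R1881 by 0.21 (SE 0.038) at 24 h and 0.20 (SE 0.028) at 72 h and passed in no inhibitor comparison. COPB2, the beta-prime subunit, rose by 0.15 (SE 0.039) and 0.25 (SE 0.029) and fell in all 4 inhibitor comparisons, with -0.18, -0.22, -0.10 and -0.13 for Senexin B without and with R1881 and SNX631 without and with R1881. ARCN1, the delta subunit, rose by 0.12 (SE 0.037) and 0.25 (SE 0.028). COPE, the epsilon subunit, rose at 72 h only by test (0.16, SE 0.035) and had -0.027 (SE 0.041) at 24 h. COPA, the alpha subunit, fell at 24 h with a log2 fold change of -0.16 (SE 0.033) and had 0.0084 (SE 0.026) at 72 h. With the inhibitor present R1881 lowered COPA in both experiments, with -0.15 (SE 0.034) under Senexin B and -0.11 (SE 0.025) under SNX631. COPB1, the beta subunit, passed in none of the 8 comparisons, with -0.10 (SE 0.038) and 0.04 (SE 0.027) for R1881. The summed coatomer level was 1439.9 ± 6.31 CPM with vehicle and 1489 ± 16.1 CPM with R1881 at 24 h, and 1432 ± 14.9 and 1624 ± 24.3 CPM at 72 h. With R1881 and inhibitor it was 1390.0 ± 27.5 and 1479 ± 16.3 CPM. The rise of ARCN1 at 24 h missed the limit without vehicle 24 h replicate 1 or 2 or R1881 24 h replicate 3 (FDR of up to 0.0361), and that of COPB2 without R1881 24 h replicate 3 (FDR 0.0111). The falls of COPB2 with the inhibitor alone missed it without Senexin B replicate 2 (FDR 0.0161) and, for SNX631, without vehicle 72 h replicate 1, 2 or 4 or SNX631 replicate 1 or 4 (FDR of up to 0.0245).

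All 3 genes of the ARF step rose in all 4 androgen comparisons. ARF1, the GTPase that recruits coatomer, stood at 486, 486 and 494 CPM with vehicle and 584, 618 and 593 CPM with R1881 at 24 h, a log2 fold change of 0.29 (SE 0.033, FDR 3.62e-09). After 72 h it was 415, 419, 414 and 407 CPM with vehicle and 566, 551, 565 and 566 CPM with R1881, a log2 fold change of 0.44 (SE 0.022, FDR 4.67e-20). The groups did not overlap in either experiment. ARF1 was at 581, 554 and 552 CPM with R1881 and Senexin B and 520.4, 538, 529.9 and 538 CPM with R1881 and SNX631, and with the inhibitor alone at 469, 500.4 and 465 and 390.2, 383, 392 and 375 CPM. The inhibitor differences of ARF1 were small, from -0.10 (FDR 2.56e-04) to -0.032 (FDR 0.480). ARF4, a second ARF GTPase, rose by 0.29 (SE 0.038) and 0.35 (SE 0.033) with R1881. GBF1, the exchange factor that activates ARF at the Golgi, rose by 0.42 (SE 0.038) and 0.52 (SE 0.033), from 159.5 ± 1.17 to 214 ± 7.44 CPM and from 149.995 ± 4.95 to 215 ± 10.00 CPM (mean ± SD of 3 and 4 libraries). Both fell in every inhibitor comparison. The log2 fold changes of ARF4 were -0.27 without and -0.33 with R1881 for Senexin B and -0.20 and -0.20 for SNX631. Those of GBF1 were -0.33 and -0.34 for Senexin B and -0.17 and -0.31 for SNX631, in the same order.

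In the COPII coat the inner-layer genes SEC23A and SEC23B parted. SEC23A fell with R1881 from 239.5, 233 and 232 CPM to 175, 167 and 175 CPM at 24 h, a log2 fold change of -0.45 (SE 0.035, FDR 7.12e-13). In the 72 h experiment it fell from 229, 231, 219 and 230.2 CPM to 183, 178, 183 and 182 CPM, a log2 fold change of -0.33 (SE 0.028, FDR 4.30e-13). SEC23A was thereby the only member that R1881 lowered in both experiments. The inhibitors moved SEC23A the other way, to 300.04, 309 and 317 CPM with Senexin B and 313, 299, 305 and 319 CPM with SNX631, log2 fold changes of 0.40 (SE 0.032, FDR 2.47e-11) and 0.44 (SE 0.026, FDR 1.01e-16). With R1881 and inhibitor it was at 196, 205 and 198 CPM and 217, 208, 212 and 215 CPM, above R1881 alone by 0.21 (SE 0.036) and 0.23 (SE 0.027). The 4 groups of each experiment did not overlap, with R1881 lowest, then R1881 and inhibitor, then vehicle, then inhibitor alone. SEC23B, its paralog, had no such order. It was at 222, 214 and 224 CPM with vehicle and 238, 229 and 231 CPM with R1881 at 24 h, a log2 fold change of 0.077 (SE 0.033) that did not pass (FDR 0.0428), and rose at 72 h from 201, 196, 199 and 196 to 237, 229.8, 236 and 233 CPM, by 0.24 (SE 0.025, FDR 2.03e-10). No inhibitor comparison of SEC23B passed, and its estimates lay between -0.057 and 0.048. The ratio of SEC23A to SEC23B counts was 1.07 ± 0.0269 with vehicle, 0.741 ± 0.0144 with R1881, 1.36 ± 0.0144 with Senexin B and 0.847 ± 0.0158 with both at 24 h (SD, n = 3). The same ratio after 72 h was 1.15 ± 0.0357, 0.776 ± 0.00363, 1.51 ± 0.0623 with SNX631 and 0.949 ± 0.0203 with both (SD, n = 4).

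**Figure D3:**
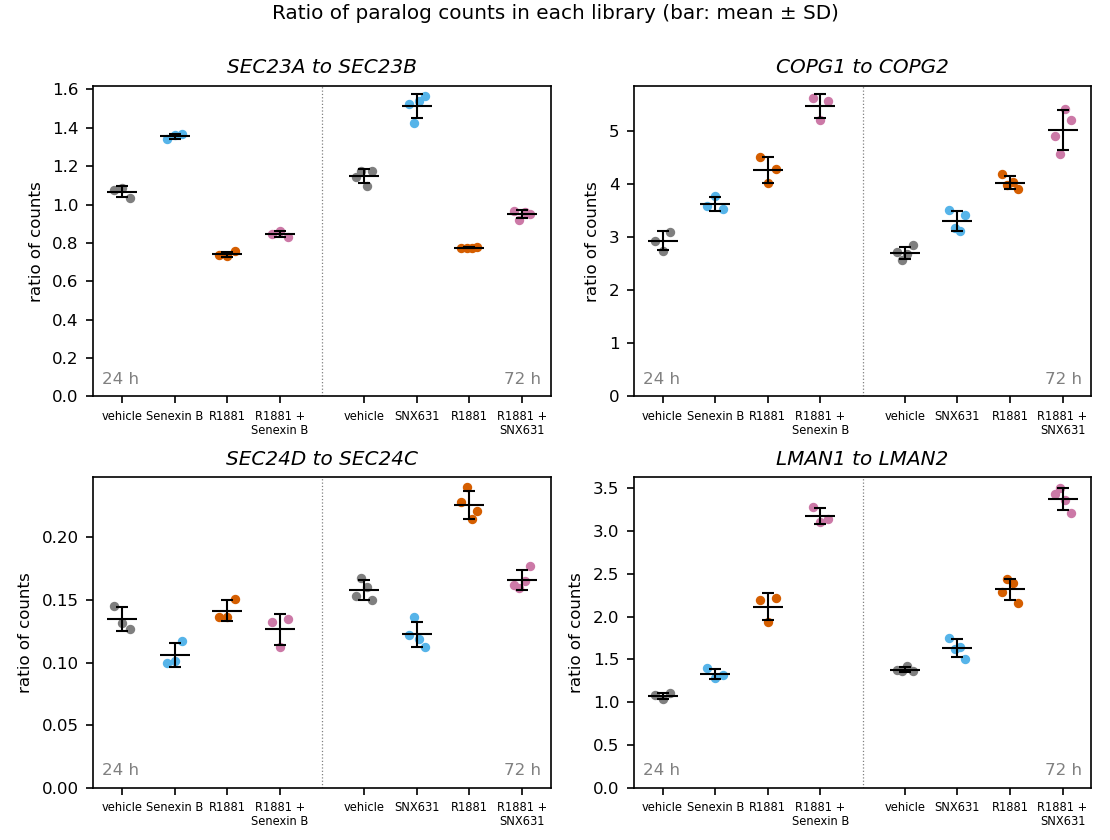
Ratio of the counts of 2 paralogs in each library (points) with the mean and SD (bars) for SEC23A to SEC23B, COPG1 to COPG2, SEC24D to SEC24C and LMAN1 to LMAN2 in the 8 groups, with axes from 0. SEC23A to SEC23B is below 1 in every R1881 library and highest with inhibitor alone, and COPG1 to COPG2 and LMAN1 to LMAN2 are highest with R1881 and inhibitor together.

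The 4 SEC24 genes, whose products bind the cargo, all rose with R1881 in both experiments, but by different amounts. SEC24D, the least abundant of the 4, changed most at 72 h, while SEC24B did at 24 h. SEC24D stood at 28.9, 25.5 and 25.5 CPM with vehicle and 30.0, 30.6 and 32.4 CPM with R1881 at 24 h, a log2 fold change of 0.24 (SE 0.069, FDR 0.00359). After 72 h it went from 28.7, 32.1, 30.3 and 29.9 CPM to 57.7, 60.7, 55.4 and 57.9 CPM, a log2 fold change of 0.94 (SE 0.05, FDR 7.06e-19) or 1.91-fold. The 24 h change missed the limit without vehicle 24 h replicate 2 or 3 or R1881 24 h replicate 3 (FDR of up to 0.0465) and in DESeq2 (FDR 0.0205). Both inhibitors lowered SEC24D, to 19.5, 19.96 and 23.1 CPM with Senexin B (-0.33, SE 0.073) and 24.0, 26.2, 22.5 and 22.1 CPM with SNX631 (-0.35, SE 0.059). With R1881 present it was at 29.9, 25.8 and 28.999 CPM with Senexin B, a difference of -0.13 (SE 0.074) that did not pass (FDR 0.183). It was at 38.3, 37.5, 39.5 and 40.7 CPM with SNX631, a difference of -0.57 (SE 0.047, FDR 1.09e-12) that lay just short of the 1.5-fold limit and crossed it without R1881 72 h replicate 3 or without R1881 and SNX631 replicate 4.

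SEC24B rose from 49.9, 53.1 and 50.5 CPM to 74.6, 73.2 and 71.7 CPM at 24 h (0.52, SE 0.046, FDR 1.53e-11) and from 57.0, 56.01, 57.1 and 55.5 CPM to 86.6, 86.4, 87.8 and 87.8 CPM at 72 h (0.63, SE 0.039, FDR 8.10e-17). The 2 groups stayed apart both times. The inhibitor alone left it at 45.3, 49.0 and 46.5 CPM and 53.2, 51.2, 56.5 and 51.7 CPM, where neither comparison passed, and with R1881 it fell to 63.2, 59.9 and 59.8 CPM (-0.26, SE 0.047) and 69.1, 76.0, 69.2 and 69.1 CPM (-0.30, SE 0.037). SEC24A rose by 0.30 (SE 0.048) and 0.45 (SE 0.041), from 58.2 ± 1.82 to 71.9 ± 5.18 and from 64.6 ± 3.89 to 87.9 ± 3.56 CPM. SEC24C, the most abundant of the 4, rose by 0.15 (SE 0.034) and 0.42 (SE 0.027), from 198 ± 3.66 to 219 ± 4.59 and from 192 ± 5.34 to 256 ± 4.90 CPM. Of the exon bases of SEC24C 42.9% are also covered by an annotated gene on the opposite strand, and the use of strand in counting is not given in the sources used here. The ratio of SEC24D to SEC24C counts was 0.158 ± 0.00806 with vehicle and 0.226 ± 0.0112 with R1881 at 72 h, and 0.135 ± 0.00945 and 0.142 ± 0.00828 at 24 h. The cage genes differed too. SEC13 rose by 0.29 (SE 0.042) and 0.47 (SE 0.036), while SEC31A had -0.10 (SE 0.035) and -0.077 (SE 0.032), neither past the limit, and fell with R1881 when the inhibitor was present, with -0.21 (SE 0.036) and -0.13 (SE 0.032). SEC13 is also a nuclear pore component.

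Of the 5 genes that start COPII assembly, SAR1B changed most. The GTPase SAR1B stood at 114, 109.9 and 115 CPM with vehicle and 158, 157 and 155 CPM with R1881 at 24 h, a log2 fold change of 0.47 (SE 0.036, FDR 5.08e-13). In the 72 h experiment it was 109.6, 109.6, 114 and 109.8 CPM and 174, 164, 166 and 160.1 CPM, a log2 fold change of 0.58 (SE 0.034, FDR 7.90e-18) that lay just under the 1.5-fold limit and passed it without vehicle 72 h replicate 3, R1881 72 h replicate 2 or R1881 72 h replicate 4. The groups did not overlap. Under R1881 and inhibitor SAR1B was at 134, 134 and 132 CPM and 150.04, 142, 145 and 159 CPM, lower than R1881 alone (-0.24, SE 0.037 and -0.16, SE 0.032). With inhibitor alone it was at 103, 111 and 106 CPM with Senexin B, where the difference did not pass, and 101, 97.8, 103 and 102 CPM with SNX631, where the difference of -0.14 (SE 0.036, FDR 0.00246) was lost without vehicle 72 h replicate 3 or SNX631 replicate 2 (FDR of up to 0.0132). Its paralog SAR1A rose by 0.23 (SE 0.036) and 0.21 (SE 0.031), from 132 ± 3.18 to 155 ± 1.50 CPM and from 129 ± 3.60 to 149 ± 4.32 CPM. PREB, the exchange factor for SAR1, rose by 0.31 (SE 0.041) and 0.35 (SE 0.037) and passed in no inhibitor comparison. SEC16A, the scaffold of ER exit sites, rose only at 72 h by test (0.16, SE 0.034, against 0.037, SE 0.034 at 24 h). TFG, which organises the same sites, had -0.083 (SE 0.037) and -0.035 (SE 0.03) with R1881 alone and fell with R1881 under Senexin B, with -0.21 (SE 0.038).

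All 5 p24 receptors rose in all 4 androgen comparisons. TMED9 changed most at 72 h. It was at 76.96, 80.8 and 80.8 CPM with vehicle and 93.2, 110.5 and 102 CPM with R1881 at 24 h (0.35, SE 0.046, FDR 6.59e-08), and at 71.5, 72.5, 77.2 and 72.3 CPM and 108, 108, 113 and 113 CPM at 72 h (0.59, SE 0.035, FDR 1.58e-17). The 72 h call rests on a fold change of 1.51, and the log2 value went to 0.58, under the limit, in 5 of 16 fits without 1 library (vehicle 72 h replicate 1, 2 or 4, R1881 72 h replicate 3 or 4). TMED9 passed in no inhibitor comparison. It was at 80.9, 80.5 and 81.1 CPM with Senexin B, 67.0, 70.9, 70.3 and 71.3 CPM with SNX631, 103, 98.9 and 102 CPM with R1881 and Senexin B and 102, 105, 103 and 107 CPM with R1881 and SNX631, and the 95% intervals of the inhibitor differences with R1881 were -0.10 to 0.082 and -0.15 to -0.02 on the log2 scale. TMED3 rose by 0.39 (SE 0.034) and 0.31 (SE 0.033), TMED2 by 0.25 (SE 0.032) and 0.30 (SE 0.026), TMED10 by 0.23 (SE 0.03) and 0.34 (SE 0.024) and TMED7 by 0.14 (SE 0.039) and 0.19 (SE 0.03). TMED10 was the p24 gene that fell in all 4 inhibitor comparisons, with -0.17, -0.19, -0.23 and -0.25 in the order Senexin B without and with R1881, SNX631 without and with R1881. TMED2, which pairs with TMED10 in the p24 complex, rose with Senexin B in the presence of R1881 (0.13, SE 0.032) and passed in no other inhibitor comparison. For TMED7, 24.0% of the exon bases are shared with an annotated read-through gene on the same strand, and its level is uncertain to that extent. The rise of TMED7 at 24 h missed the limit without vehicle 24 h replicate 2 or 3 (FDR of up to 0.0223), its rise under Senexin B without Senexin B replicate 2 or R1881 and Senexin B replicate 3 (FDR of up to 0.0383), and the rise of TMED2 without R1881 24 h replicate 1 or R1881 and Senexin B replicate 2 (FDR of up to 0.0464).

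Among the remaining cargo receptors LMAN1 had the largest change. It stood at 172, 168 and 172 CPM with vehicle and 307, 291 and 309.8 CPM with R1881 at 24 h, a log2 fold change of 0.83 (SE 0.034, FDR 5.48e-20) or 1.77-fold. After 72 h it was 189.7, 187, 188 and 185 CPM and 317, 315, 313 and 292 CPM, a log2 fold change of 0.72 (SE 0.028, FDR 1.72e-23) or 1.65-fold. LMAN1 rose further when the CDK8/19i was added to R1881. It reached 428, 423 and 431 CPM with Senexin B and 427, 426, 416 and 414 CPM with SNX631, above R1881 alone by 0.50 (SE 0.033, FDR 2.00e-13) and 0.44 (SE 0.026, FDR 7.51e-17). Every library with R1881 and inhibitor lay above every library with R1881 alone. Without R1881 it was at 203, 191 and 192 CPM with Senexin B, a rise of 0.20 (SE 0.035, FDR 3.87e-05), and at 202, 189, 194 and 189 CPM with SNX631, where the difference of 0.047 (SE 0.029) did not pass (FDR 0.205). The effect of R1881 under the inhibitor was 2.19-fold at 24 h and 2.17-fold at 72 h.

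MCFD2, the partner with which LMAN1 exports coagulation factors, rose less, by 0.25 (SE 0.044) and 0.39 (SE 0.036), from 73.4 ± 3.04 to 87.8 ± 1.92 CPM and from 81.0 ± 4.31 to 106 ± 3.94 CPM. With R1881 and inhibitor it was at 91.1 ± 3.34 CPM (0.053, SE 0.045, FDR 0.391) and 95.2 ± 1.12 CPM (-0.15, SE 0.035, FDR 4.05e-04). LMAN2, a related lectin, rose in neither experiment. It was at 159, 162 and 156 CPM with vehicle and 139.8, 150.5 and 139.9 CPM with R1881 at 24 h (-0.14, SE 0.036, FDR 0.00103) and at 138, 137, 132 and 136 and 139, 129.6, 131 and 136 CPM at 72 h (-0.023, SE 0.032, FDR 0.540). The fall of LMAN2 at 24 h missed the limit without R1881 24 h replicate 1 or 3 (FDR of up to 0.0157). The ratio of LMAN1 to LMAN2 counts was 1.07 ± 0.0337 with vehicle, 2.12 ± 0.155 with R1881 and 3.17 ± 0.0893 with R1881 and Senexin B at 24 h, and 1.38 ± 0.0277, 2.32 ± 0.123 and 3.37 ± 0.127 with R1881 and SNX631 at 72 h.

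SURF4, a receptor for many soluble secreted proteins, rose from 192, 198 and 197 CPM to 271, 288 and 274 CPM at 24 h (0.50, SE 0.033, FDR 9.18e-15) and from 203, 203, 203 and 205 CPM to 306, 307, 314 and 312 CPM at 72 h (0.61, SE 0.024, FDR 5.40e-23). The spread between libraries was far smaller than this step. With R1881 and inhibitor it was at 269, 264 and 269 CPM (-0.054, SE 0.033, FDR 0.213) and 281, 286, 291 and 289.8 CPM (-0.11, SE 0.023, FDR 1.33e-04). The inhibitor alone lowered it to 178, 179 and 182 CPM (-0.13, SE 0.034) and 180.3, 184, 187 and 181 CPM (-0.15, SE 0.025), and the fall with Senexin B missed the limit in 5 of 12 fits, those without vehicle 24 h replicate 2 or 3 or any 1 of the Senexin B libraries, with an FDR of up to 0.0240.

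Of the 5 Golgi genes, GOLGA2 and GORASP2 rose with R1881 in both experiments. GOLGA2, a matrix protein of the cis-Golgi that tethers incoming vesicles, stood at 74.7, 75.8 and 75.1 CPM with vehicle and 91.0, 88.4 and 89.7 CPM with R1881 at 24 h (0.25, SE 0.044, FDR 8.66e-06), and at 70.6, 66.8, 74.4 and 70.3 CPM and 106, 107, 106 and 112 CPM at 72 h (0.61, SE 0.036, FDR 1.41e-17). With R1881 and inhibitor it was at 76.1, 74.6 and 77.1 CPM and 83.2, 86.4, 86.1 and 87.2 CPM, lower than R1881 alone with log2 fold changes of -0.24 (SE 0.046) and -0.33 (SE 0.035). The inhibitor alone gave 59.6, 66.0 and 68.6 CPM with Senexin B (-0.22, SE 0.045, FDR 2.57e-04) and 64.7, 65.1, 68.9 and 64.1 CPM with SNX631 (-0.10, SE 0.039, FDR 0.0396). The table holds 9 rows named as GOLGA2 pseudogenes, whose counts summed to 33.9% to 41.1% of those of GOLGA2 in the R1881 libraries at 72 h and to 47.2% to 56.7% in the vehicle libraries, so the level of GOLGA2 is uncertain where reads are shared with them.

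GORASP2, a stacking protein, rose by 0.15 (SE 0.049) and 0.22 (SE 0.038), the former lost without vehicle 24 h replicate 2 or 3 or R1881 24 h replicate 1 or 3 (FDR of up to 0.0689). Its rise under Senexin B (0.19, SE 0.051) was lost without Senexin B replicate 1 or 3 or R1881 and Senexin B replicate 3 (FDR of up to 0.0276). The tether USO1 passed in no comparison, with -0.063 (SE 0.039) and 0.022 (SE 0.033) for R1881. The SNAREs BET1 and STX5 did not pass with R1881 alone, at 0.10 (SE 0.089) and 0.23 (SE 0.078) for BET1 and -0.044 (SE 0.051) and 0.047 (SE 0.05) for STX5. With SNX631 present R1881 raised both, BET1 by 0.26 (FDR 0.0021) and STX5 by 0.15 (FDR 0.0088). These rises missed the limit in 2 and 8 of 16 fits without 1 library (FDR of up to 0.0220 and 0.0533). STX5 fell with both inhibitors alone (-0.22, SE 0.051 and -0.18, SE 0.05) and with Senexin B in the presence of R1881 (-0.25, SE 0.057). Its falls with the inhibitor alone were lost without Senexin B replicate 2 (FDR 0.0108) and, for SNX631, without vehicle 72 h replicate 1, 3 or 4 or SNX631 replicate 2 or 4 (FDR of up to 0.0248).

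**Figure D4:**
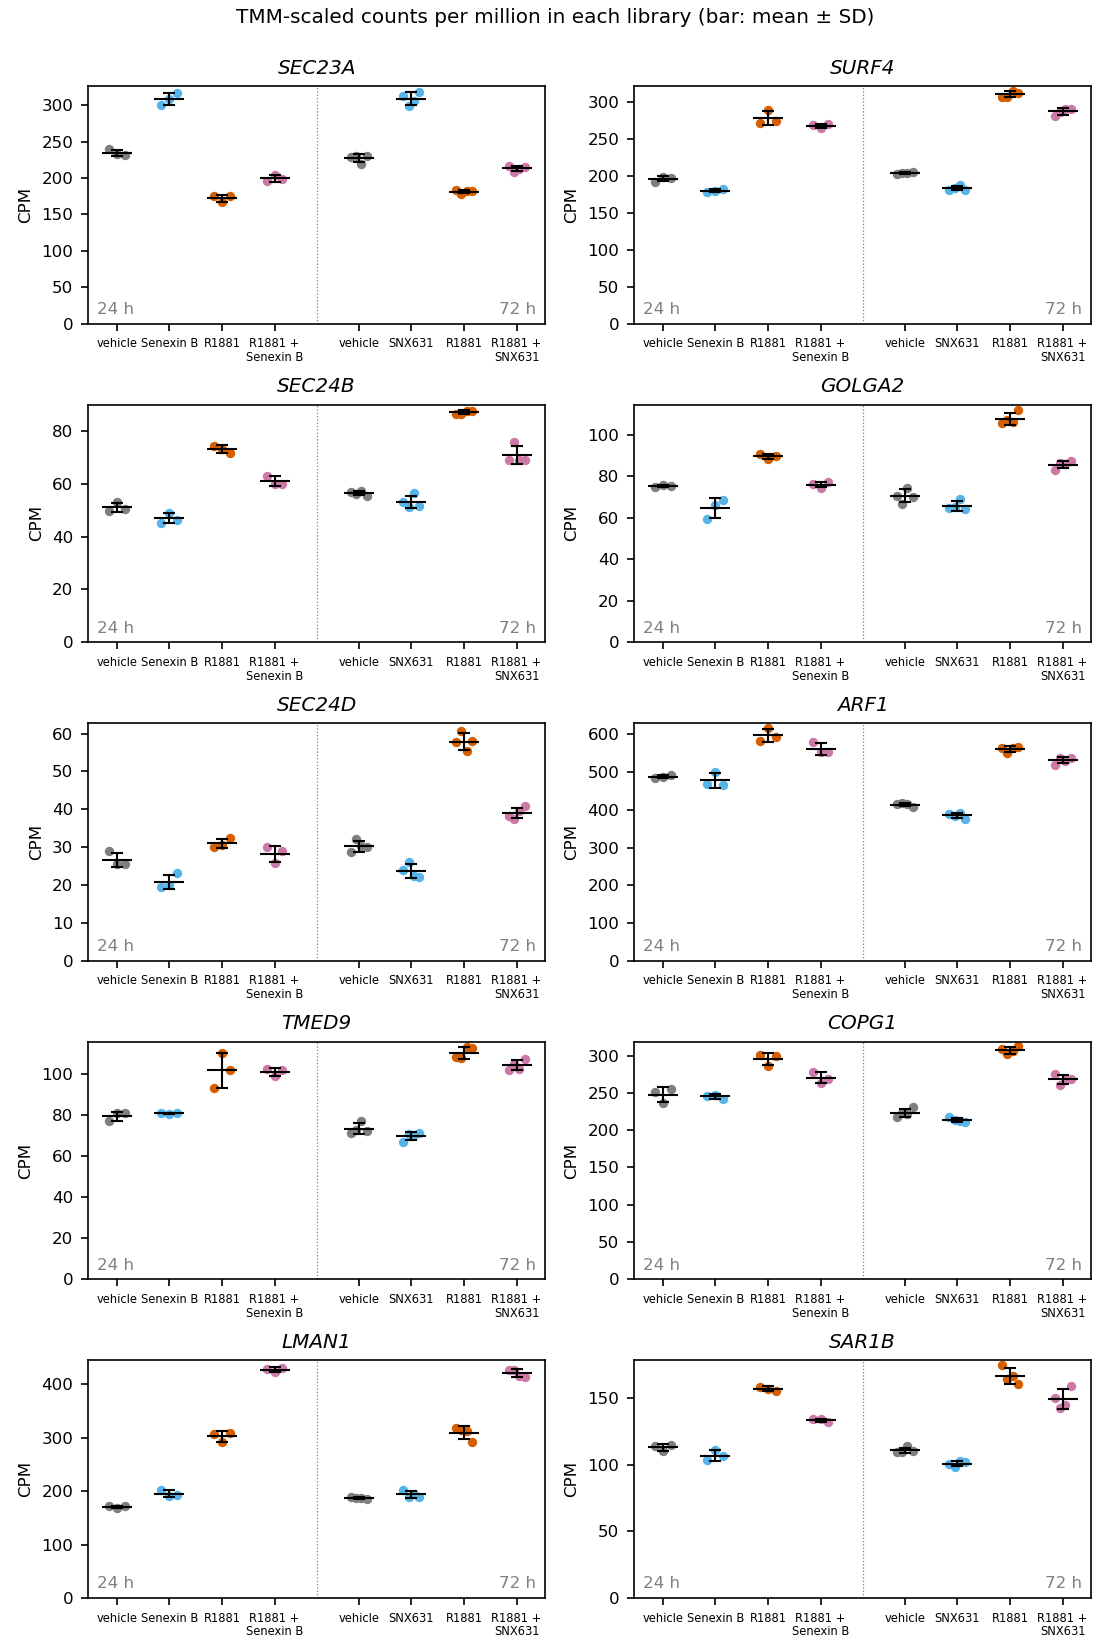
Level in TMM-scaled CPM, on axes from 0, of the 10 genes given in full in each of the 28 libraries (points), with the mean and SD of each group (bars) and the 24 h and 72 h experiments left and right of the dotted line. R1881 libraries lie above vehicle for all genes but SEC23A, and among those LMAN1 alone lies higher still with R1881 and inhibitor.

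The CDK8/19i moved the members little, and mostly down. Senexin B alone raised 2 and lowered 11 of the 38 (13.5% and 11.7% of all genes), and SNX631 alone raised 1 and lowered 15 (14.4% and 12.5%). In the presence of R1881, Senexin B raised 3 and lowered 14 (12.7% and 10.0%), and SNX631 raised 2 and lowered 20 (17.8% and 15.4%). The medians of the members were -0.053, -0.079, -0.090 and -0.11 on the log2 scale, beside 0.00047, 0.0020, 0.010 and -0.0052 over all genes. No member was called in any of these 4 comparisons, where 3.79%, 4.77%, 3.12% and 4.12% of all genes were. DESeq2 called none either, and at an unadjusted p under 0.05 there were 22, 22, 22 and 31 members. The share of all genes at that p was not counted, so how unusual these counts are cannot be read from them. COPB2, COPG2, ARF4, GBF1 and TMED10 fell in all 4, beside 4.07% of all genes, and SEC23A rose in all 4, beside 5.08%. COPB1, COPZ1, SEC23B, SEC24A, SEC16A, SAR1A, PREB, TMED3, TMED9, GORASP2, USO1 and BET1 passed in none. The inhibitors differ in dose and time and their values are given side by side without a comparison of the compounds. When 1 library was left out at a time, 8 of 13, 11 of 16, 12 of 17 and 21 of 22 members kept the limit in every fit, in the order above.

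Few members showed an R1881 effect that differed with the inhibitor. At 24 h the interaction, the R1881 effect with inhibitor minus that without, was positive for LMAN1 and passed for no other member (1.08% of all genes higher, 1.02% lower). At 72 h it was positive for LMAN1 and negative for COPG1, SEC23A, SEC24B and GOLGA2 (2.99% and 4.10% of all genes). None was called, against 0.577% and 1.19%, and none was called by DESeq2. At an unadjusted p under 0.05 there were 8 and 14 members, and the share of all genes at that p was not counted. For LMAN1 the interaction was 0.30 (SE 0.048, FDR 8.12e-05) at 24 h and 0.40 (SE 0.039, FDR 7.93e-10) at 72 h. It was -0.21 (SE 0.038, FDR 1.22e-04) for SEC23A and -0.23 (SE 0.052, FDR 0.00183) for GOLGA2 at 72 h. The values of COPG1 (-0.13, SE 0.036, FDR 0.00960) and SEC24B (-0.21, SE 0.056, FDR 0.00832) missed the limit in 14 and 13 of 16 fits without 1 library, with an FDR of up to 0.0314 and 0.0367, and in DESeq2.

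In a fit of all 28 libraries the log2 fold change with R1881 was higher at 72 h than at 24 h for 8 members and lower for none by test, where 7.54% of 16672 genes differed in either direction. SEC24D differed most, by 0.70 (SE 0.085, FDR 2.12e-08), and was the only member past 1.5-fold. GOLGA2 differed by 0.36 (SE 0.055, FDR 2.92e-06), SEC24C by 0.27 (SE 0.04, FDR 1.54e-06) and COPG1 by 0.21 (SE 0.041, FDR 1.49e-04). TMED9 (0.24, SE 0.057, FDR 0.00191), COPA (0.17, SE 0.04, FDR 0.00221), SEC23B (0.16, SE 0.038, FDR 0.00182) and ARF1 (0.15, SE 0.038, FDR 0.00369) came closer to the limit. Vehicle 24 h replicate 3 decided those of TMED9, SEC23B and ARF1, R1881 24 h replicate 1 those of TMED9, COPA and ARF1, vehicle 24 h replicate 1 that of COPA, and R1881 24 h replicate 3 and vehicle 72 h replicate 4 that of ARF1. Without any 1 of these the FDR went up to 0.0238. For COPA the difference is between a fall at 24 h and no change past the limit at 72 h. For LMAN1 the difference was -0.10 (SE 0.043, FDR 0.128), not past the limit. The inhibitor effects without R1881 differed between the experiments for no member, where 2.20% of all genes differed. The members' estimates ran from -0.18 to 0.16 on the log2 scale. At an unadjusted p under 0.05 there were 6 members, and the share of all genes at that p was not counted. DESeq2 was also run on these differences, but its values are not given here. Dose, time, compound and experiment cannot be told apart in the differences.

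The TGACGTGG match described above was in none of LMAN1, SEC24B, SURF4 and GOLGA2, the 4 genes called with R1881 at 72 h that have a promoter sequence. Of the 9 members with TGACGTGG, 4 rose and 2 fell with R1881 at 24 h, with a median log2 fold change of 0.037, and 5 rose and 1 fell at 72 h, with a median of 0.16. Of the other 25 with a promoter sequence, 18 rose and 2 fell at 24 h (median 0.23) and 20 rose at 72 h (median 0.30). Over all genes 26.3% rose and 22.1% fell at 24 h, and 27.6% and 24.6% at 72 h. LMAN1, SEC24B and GOLGA2 hold no ACGTG in their window, whereas SURF4 does. These are descriptions without a test.

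Of 94 other genes of ER and Golgi transport (further ARF and ARF regulators, tethering complexes, SNAREs, RABs, golgins, translocon and CREB3-type factors) 90 were tested. This list, too, was chosen with earlier results of these data known. R1881 raised 24 and lowered 20 at 24 h and raised 40 and lowered 16 at 72 h, where 26.3% and 22.1% of all genes rose and fell at 24 h and 27.6% and 24.6% at 72 h. The medians were 0.0058 and 0.090 on the log2 scale. Of the 90 genes 4 were called higher at 24 h and 7 at 72 h, and none lower, beside 9.81% and 9.70% of all genes called higher. CREB3L4, GOLGB1, GOLGA4 and KDELR2 were called in both experiments. CREB3L4, a membrane-bound transcription factor of the ER, rose by 0.87 (SE 0.045) and 1.16 (SE 0.038), from 59.8 ± 0.764 to 109 ± 6.54 CPM and from 62.8 ± 3.20 to 141 ± 2.41 CPM. The golgin GOLGB1 rose by 0.87 (SE 0.045) and 0.76 (SE 0.042), from 251 ± 4.54 to 460.2 ± 45.1 CPM and from 261 ± 12.3 to 441 ± 29.7 CPM. GOLGA4, a golgin of the trans-Golgi, rose by 0.59 (SE 0.044) and 0.86 (SE 0.034). KDELR2, a receptor that returns ER proteins in COPI vesicles, rose by 0.67 (SE 0.036) and 0.70 (SE 0.027), from 155 ± 2.01 to 246 ± 8.12 CPM and from 164 ± 4.30 to 267 ± 3.20 CPM. Adding the inhibitor to R1881 lowered CREB3L4, with -0.15 (SE 0.045) and -0.15 (SE 0.033), whereas GOLGA4 rose further with Senexin B (0.27, SE 0.043).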

How the data were processed

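RNA-Seq counts per gene of 28 LNCaP libraries were used. Per the labels and the submitters' processing notes, reads were checked with FastQC, trimmed with cutadapt 2.8, aligned with STAR 2.7.2b and counted with featureCounts of Subread 2.0.3, and the builds GRCh38.p13 and GRCm39 are named. The annotation release and the use of strand in counting are not given in the sources used here. The deposited values are estimated counts (expected counts), since 16.9% of those above 0 are fractional (14.7% for the 38 members), and they were rounded to whole numbers.

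Genes were kept with filterByExpr of edgeR 4.0.16 in R 4.3.3 (minimum count 10, minimum total 15). Each experiment was scaled by TMM and fitted alone with edgeR's quasi-likelihood test, with Benjamini-Hochberg adjustment over all genes tested. The limits were an FDR of 0.01 and, for a call, a fold of 1.5. Differences between experiments came from 1 fit of all 28 libraries. The design gives biological triplicates and quadruplicates. The fits were first tested on simulated counts with known changes, set in genes drawn at random from those tested. At the FDR limit, log2 changes of 0.3 were recovered in 47.4% of genes at 24 h and 50% at 72 h. For log2 changes of 1 the values were 92.9% and 91.8%.

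The 10 genes given with every library were those called in any comparison, filled to 10 by the lowest FDR with R1881, with their paralogs beside them. The members and lists were chosen with earlier results of these data known. Positions are from GENCODE 29 and promoters from RefSeq. Alternatives were DESeq2 1.42.0, its size factors, library totals, no filter, 1 fit for all libraries, a replicate block, thinning to the smallest total, an FDR of 0.05 and leaving out each library.

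Replicate numbers shared between groups were checked. Over 18 pairs of same-numbered libraries at 24 h and 24 pairs at 72 h, the highest correlation of deviations from the group means was 0.0796 and 0.0735, and none exceeded 0.1, so the numbers were not treated as pairs. The 36 pairs of replicates within groups differed by more than sampling noise, with a chi-square per degree of freedom of 1.20 to 2.48.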

Additional observations from a re-analysis of the deposited data

Results flagged for a closer look

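Among the 10 genes given in full, 40 groups of 4 libraries were screened with Dixon's test for a library that stands apart, and 6 did, where chance gives about 1 in 20. These were ARF1 at 551 CPM in an R1881 library at 72 h, SEC23A at 219 CPM, SAR1B at 114 CPM and SURF4 at 205 CPM in vehicle libraries at 72 h, SEC24B at 76.0 CPM in a library with R1881 and SNX631, and LMAN1 at 292 CPM in an R1881 library at 72 h. Groups of 3 were not screened.

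The log2 fold change with R1881 was higher at 72 h than at 24 h in the fit of all libraries for 8 genes, by 0.17 for COPA, 0.21 for COPG1, 0.15 for ARF1, 0.16 for SEC23B, 0.27 for SEC24C, 0.70 for SEC24D, 0.24 for TMED9 and 0.36 for GOLGA2 on the log2 scale. COPA fell at 24 h and did not pass at 72 h. The differences of COPA, ARF1, SEC23B and TMED9 missed the FDR limit in some fits without 1 library. Dose, time and experiment cannot be told apart.

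The R1881 effect with inhibitor differed from that without it for LMAN1 at 24 h (0.30) and at 72 h (0.40). It also differed at 72 h for COPG1 (-0.13), SEC23A (-0.21), SEC24B (-0.21) and GOLGA2 (-0.23). The values of COPG1 and SEC24B missed the FDR limit in 14 and 13 of 16 fits without 1 library, and in DESeq2.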

How the results depend on the processing

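No value past the FDR limit changed sign under any alternative. Of the values short of it, library totals gave the opposite sign with R1881 for SEC16A at 24 h (-0.040) and for COPA (-0.093), COPB1 (-0.062), USO1 (-0.080) and STX5 (-0.054) at 72 h, and thinning did so for COPA at 72 h (-0.0053). Without 1 library the sign also varied for COPE at 24 h (-0.057 to 0.012), COPA (-0.0063 to 0.017) and USO1 (-0.0033 to 0.033) at 72 h, and for TMED9 with Senexin B over R1881 (-0.076 to 0.043). The counts of members past the FDR limit stayed within 1.5 times in the androgen and inhibitor comparisons, with ranges over fits without 1 library of 24 to 30 and 29 to 31 for R1881 at 24 h and 72 h, 26 to 29 and 32 to 33 with Senexin B and SNX631 present, 9 to 14 and 12 to 17 for Senexin B and SNX631 alone, and 12 to 17 and 21 to 24 for the inhibitors with R1881. On library totals 2 members were called with R1881 at 72 h in place of 6 (5 to 7 without 1 library) and 1 for SNX631 with R1881 in place of 0 (0 to 1 without 1 library). Without the filter 5 were called for R1881 under SNX631 in place of 3 (3 to 4 without 1 library). The interaction at 24 h passed for 2 members in the fit of all libraries (1 to 2 without 1 library). At 72 h it passed for 3 in place of 5 with DESeq2, without the filter, with thinning and with the replicate block (3 to 5 without 1 library). The cause was not tested.

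With the replicate number as a block, 30 members passed with R1881 at 24 h and 29 at 72 h, and 15 with Senexin B alone. The check of same-numbered libraries gave no sign that the numbers pair the libraries. It does not exclude pairing, since no differently numbered libraries were set beside them.

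The limits are reads shared with near-identical copies or overlapping genes and changes close to the FDR limit. The depth and number of libraries limit what can be called: a missed limit does not show that a gene did not differ.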
